A study of Homo sapiens with 18 samples.

Results

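RNA decay and small RNA processing genes encode the proteins that shorten, decap and degrade messenger RNAs and that make and use microRNAs. They were followed here as 54 genes, taken from the deposited count table of 59251 genes by their symbols. Of these, 53 were found as written and 1, SKIC2, under its older symbol SKIV2L. The set falls into 10 role groups: microRNA processing and export, Argonaute and TNRC6 silencing proteins, decapping, 5′ exonucleases, deadenylation, the exosome, exosome cofactors, nonsense-mediated decay, ribosome rescue, and binding of AU-rich elements. A filter on low counts kept 17966 genes, 52 of the 54 among them. EXOSC4, a ring subunit of the exosome, and ZFP36, which binds AU-rich elements, were listed at 0 in every library and enter no comparison. EXOSC4 belongs to a complex that all cells use, and the annotation and strand setting of the counting are not given in the sources used here, so a loss in counting and a low level cannot be told apart for these genes.

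The cells were HEK-293T, a line derived from human embryonic kidney and carrying SV40 large T antigen, and poly(A) RNA was sequenced in 18 libraries, 3 for each of 6 groups. Untransfected cells received DMSO (the labels give 0.5 uM), 0.5 uM grazoprevir, an inhibitor of the hepatitis C virus protease, or 0.1 uM rapamycin, an inhibitor of mTOR complex 1. Other cells were transfected with full-length Csy4 (labelled wtCsy4) or with split Csy4, and at 6 hours after transfection they received DMSO at 0.5 uM or, for split Csy4 only, either DMSO or 0.5 uM grazoprevir. Csy4 is a bacterial CRISPR endoribonuclease that cuts RNA at a particular hairpin, and grazoprevir is the trigger that brings the parts of split Csy4 together. Split Csy4 with DMSO is called untriggered here, and split Csy4 with grazoprevir is called triggered. Each label gives 70000 treated cells, and neither the length of treatment nor whether a group's libraries stem from separate cultures is stated, so p-values measure the spread between these libraries, which may be technical. No group was transfected without Csy4, so transfection, construct and enzyme cannot be told apart in a comparison with untransfected cells.

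Most mRNA decay starts when the poly(A) tail is shortened by the PAN2-PAN3 and CCR4-NOT complexes. The cap is then removed by DCP2 with its activators and the body is eaten from the 5′ end by XRN1, or the RNA is degraded from the 3′ end by the exosome. MicroRNAs are cut from primary transcripts by DROSHA with DGCR8, exported by XPO5, cut again by DICER1 and loaded into Argonaute proteins, whose TNRC6 partners call in the deadenylases. Nonsense-mediated decay uses the helicase UPF1 and the SMG proteins to remove mRNAs with early stop codons, and several of its own factors are known to be targets of the same pathway. Poly(A) RNA-seq measures the mRNAs of these proteins, not mature microRNAs or decay rates.

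Total counts ran from 12362101 to 19095828 per library. Markers of the line were present, with a summed level of 370 to 441 counts-per-million (CPM) over VIM, ENO2, PAX2, NEFL and NEFM in each library, although NEFM was at 0 in 4 of the 6 groups. Of 6 blood cell markers CD3E and HBB were at 0 in every library, and the 6 summed to between 2.57 and 5.47 CPM. The 6 fibroblast markers summed to 59 to 60.9 CPM with DMSO, 51.9 to 56.5 with grazoprevir, 38.7 to 39.8 with rapamycin, 37.9 to 46.3 with full-length Csy4 and 46.6 to 54.3 over both split Csy4 groups, with COL1A2 at 0 in 4 groups and DCN at 0 with rapamycin. The 6 markers of epithelial carcinoma lines summed to 47.6 to 58.5 CPM with rapamycin and 64.1 to 75.6 in the other groups, with KRT19 at 0 in 4 groups. The part of these differences in the results below was not tested. In bulk libraries, fewer cells of a kind and less RNA per cell cannot be told apart. Grazoprevir replicate 1 stood farthest from the other libraries of its group, with a root mean square log2 distance of 0.151 over genes against 0.102 to 0.127 for the other 17 libraries.

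The promoters of 4 members with called changes are shown as examples. PATL1 rose in every transfected group, and AGO1 and XRN1 fell with full-length Csy4. AGO3 rose, while AGO1, its neighbour on the same strand of chromosome 1, did not. ZFP36L1 and TNRC6C, not shown, changed at least as much with full-length Csy4 as AGO1, AGO3 and XRN1. The 250 bases before the 1 transcript start per gene that the sequence table uses, 5′ to 3′ on the gene's strand, come from RefSeq on GRCh38.p14 (the build the submitters' processing notes call hg38), and capitals mark a GC box (GGGCGG on either strand) or a CCAAT box (CCAAT on either strand).
PATL1, chr11:59669038-59669287, minus strand: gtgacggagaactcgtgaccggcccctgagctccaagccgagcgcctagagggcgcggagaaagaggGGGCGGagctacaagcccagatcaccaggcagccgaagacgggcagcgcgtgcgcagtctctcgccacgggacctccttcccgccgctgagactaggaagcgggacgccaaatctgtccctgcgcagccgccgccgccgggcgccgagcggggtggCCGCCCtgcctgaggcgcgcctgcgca
XRN1, chr3:142448038-142448287, minus strand: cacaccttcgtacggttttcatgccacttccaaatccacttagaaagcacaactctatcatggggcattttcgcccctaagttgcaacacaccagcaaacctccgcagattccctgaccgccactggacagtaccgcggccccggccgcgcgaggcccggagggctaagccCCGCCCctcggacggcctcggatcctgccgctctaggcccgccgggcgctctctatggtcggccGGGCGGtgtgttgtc
AGO1, chr1:35882959-35883208, plus strand: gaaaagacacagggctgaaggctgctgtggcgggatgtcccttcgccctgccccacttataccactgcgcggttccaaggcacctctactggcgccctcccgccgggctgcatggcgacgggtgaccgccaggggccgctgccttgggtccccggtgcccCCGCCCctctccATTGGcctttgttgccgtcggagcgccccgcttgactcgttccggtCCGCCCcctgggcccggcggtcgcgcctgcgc
AGO3, chr1:35930855-35931104, plus strand: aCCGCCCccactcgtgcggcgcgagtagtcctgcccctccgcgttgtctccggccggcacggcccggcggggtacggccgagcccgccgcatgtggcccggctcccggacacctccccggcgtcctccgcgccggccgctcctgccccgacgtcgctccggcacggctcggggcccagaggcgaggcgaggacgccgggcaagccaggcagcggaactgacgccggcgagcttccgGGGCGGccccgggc
In the RefSeq gene table of the same build AGO1 spans chr1:35869761-35930532 and AGO3 chr1:35930718-36072500, so that one ends shortly before the other begins. The windows of AGO1 and AGO3 lie inside these spans, because each gene also has a transcript that starts farther upstream. All 4 windows hold at least 1 GC box, and only AGO1's holds a CCAAT box. Among the 46 members with a promoter sequence used here, 35 (76.1%) held a GC box, against 42.3% of all 27305 promoters, and 20 (43.5%) held a CCAAT box, against 33%. TATAAA was found in 0 of the 46, against 11.1% of all promoters, and the AP-1 motif TGACTCA in 0 of the 46, against 4.16%. The 27305 promoters were not limited to genes tested here, so whether these shares are particular to the members was not tested. These are letters in the window and say nothing of what binds there.

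DGCR8, the RNA-binding partner of DROSHA, carries microRNA hairpins inside an exon of its own transcript, and these are shown because cleavage there and the counts of DGCR8 concern the same RNA. The mature microRNAs, from RefSeq on GRCh38.p14, have their seeds (bases 2 to 8) in capitals.
hsa-miR-3618, chr22:20085797-20085818: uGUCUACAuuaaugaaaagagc
hsa-miR-1306-5p, chr22:20086072-20086093: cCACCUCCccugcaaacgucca
hsa-miR-1306-3p, chr22:20086112-20086129: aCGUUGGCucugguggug
No seed is shared among the 3. Their levels were not measured by poly(A) RNA-seq.

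Between genes, levels can be compared only per length, taken here as the joined exons of all annotated transcripts of a gene. With DMSO, the highest levels per kilobase of exon were those of XRN2, the nuclear 5′ exonuclease, at 63.9 ± 1.1 CPM per kb (SD, n = 3), CNOT1, the scaffold of CCR4-NOT, at 52.2 ± 0.79, and UPF3B at 51.9 ± 2.9. CNOT1 and UPF3B do not differ beyond their spread. LSM14A followed at 47.3 ± 0.73 CPM per kb and the exosome cap subunit EXOSC2 at 42.1 ± 1.1. At the other end stood SMG6 at 3.22 ± 0.18, AGO3 at 2.95 ± 0.18, TNRC6C at 2.41 ± 0.063 and DIS3L2 at 1.66 ± 0.063 CPM per kb, of which SMG6 and AGO3 do not differ beyond their spread. Among Argonautes AGO2 was highest at 17.8 ± 0.17 CPM per kb, then AGO1 at 10.4 ± 0.31, AGO4 at 6.12 ± 0.28 and AGO3. In CPM AGO3 stood above AGO4 with DMSO (62.4 against 44.5), but its joined exons span 21157 bases against 7267. Group means of a member differed by 1.03-fold (CNOT2) to 1.69-fold (PAN2) between the lowest and the highest group, so every member stayed within that range over the 6 groups.

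A gene was called when its edgeR quasi-likelihood p, adjusted by Benjamini-Hochberg over all 17966 genes, was below 0.05. With full-length Csy4 against DMSO, 19 of the 52 members (36.5%) were called higher and 11 (21.2%) lower, against 22.9% and 24% of all genes. With untriggered split Csy4 against DMSO, 15 members (28.8%) were called higher and 6 (11.5%) lower, against 14.8% and 14.1% of all genes. With triggered split Csy4 against grazoprevir, 18 members (34.6%) were called higher and 4 (7.69%) lower, against 16.2% and 16% of all genes. In each of these 3 comparisons the share called higher was above the background, while the share called lower was near or below it. The all-gene shares, here and below, were not matched for level. The part of the members' levels in how many of them were called was not tested. The changes were small: the median log2 fold change of the members was 0.04, 0.01 and 0.04 in these comparisons, against -0.01, 0.00 and 0.00 for all genes, and the median absolute change was 0.16, 0.11 and 0.09 on the log2 scale, against 0.28, 0.19 and 0.20 for all genes. PATL1 was the only called member past a 1.5-fold change in any of the 7 comparisons between groups, with full-length and with untriggered split Csy4 against DMSO. Scaling by library totals alone moved the split for full-length Csy4 against DMSO to 27 higher and 8 lower (77.1% of calls higher, against 63.3%).

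Full-length against untriggered split Csy4 gave 7 members higher (13.5%) and 8 lower (15.4%), against 13.1% and 14.9% of all genes, which is near the background in both directions. That split moved with the scaling, to 19 higher and 6 lower with library totals alone, 11 and 8 with median-of-ratios factors and 14 and 8 with a correction for length and GC content. Rapamycin against DMSO gave 16 members higher (30.8%) and 10 lower (19.2%), against 17.2% and 16% of all genes. Triggered against untriggered split Csy4 gave 0 called members with edgeR, against 0.2% of all genes, with 5 members at an unadjusted p below 0.05 and 0 called with DESeq2. Grazoprevir against DMSO also gave 0 with edgeR, against 0.2% of all genes, with 10 members at an unadjusted p below 0.05 and 1, ZFC3H1, called with DESeq2. The interaction, which tests whether the response to grazoprevir differed between split Csy4 cells and untransfected cells, gave 0 with edgeR, against 0.351% of all genes, with 11 members at an unadjusted p below 0.05 and 2, AGO2 and TNRC6A, called with DESeq2.

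**Figure D1:**
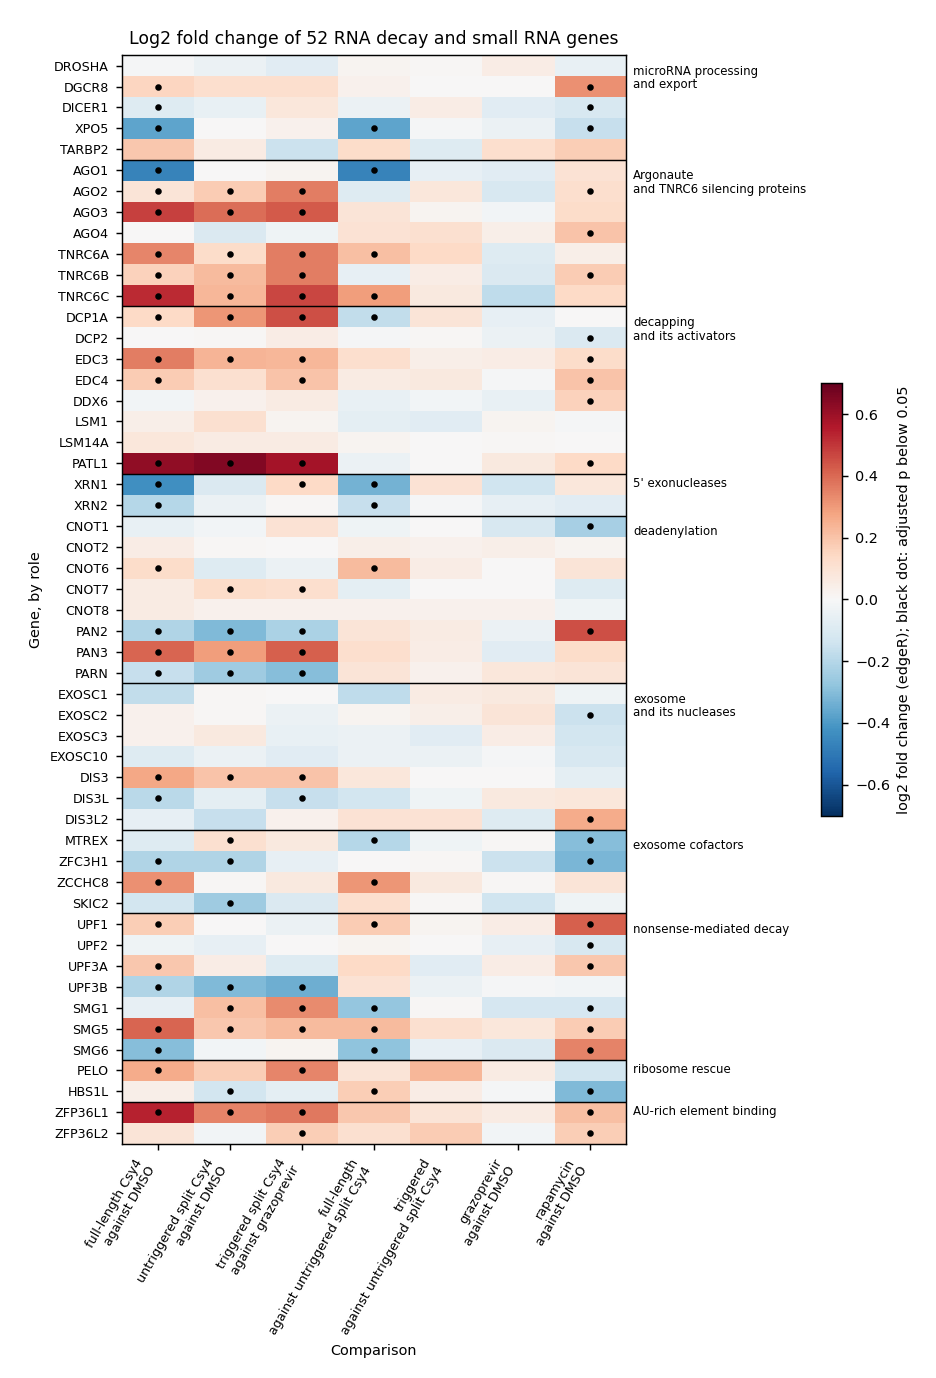
Log2 fold change (colour, red higher and blue lower) of the 52 tested members, in rows by role, in 7 comparisons in columns; a black dot marks an adjusted p below 0.05 (edgeR). PATL1, AGO3, TNRC6C and ZFP36L1 are red with dots in the first 3 columns, AGO1, XPO5 and XRN1 are blue with dots with full-length Csy4 against both DMSO and untriggered split Csy4, and triggered against untriggered split Csy4 and grazoprevir against DMSO hold no dot.

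MicroRNA processing changed little with either form of split Csy4. Of the 5 genes of this group, 0 were called with untriggered or triggered split Csy4 against its untransfected control, and with full-length Csy4 1 rose and 2 fell. All-gene shares called higher and lower were 22.9% and 24% with full-length, 14.8% and 14.1% with untriggered and 16.2% and 16% with triggered split Csy4. DROSHA, the nuclear RNase of the Microprocessor, stood at 146, 147 and 139 CPM with DMSO, 154, 139 and 157 with grazoprevir and 138, 142 and 137 with rapamycin. It stood at 149, 139 and 142 CPM with full-length, 137, 145 and 141 with untriggered and 144, 138 and 144 with triggered split Csy4. All these groups overlap, and no comparison called the gene, with log2 fold changes of -0.08 to 0.05. DICER1, which cuts the pre-microRNA hairpin, stood at 253, 258 and 260 CPM with DMSO, 231, 249 and 251 with grazoprevir and 233, 240 and 242 with rapamycin. It stood at 247, 246 and 233 CPM with full-length, 257, 248 and 242 with untriggered and 258, 254 and 258 with triggered split Csy4. The full-length, grazoprevir and rapamycin libraries all lie below the DMSO libraries, by a small distance. The fall of DICER1 by 0.09 on the log2 scale (SE 0.037, edgeR adjusted p = 0.0414) was lost in 10 of 15 alternatives, among them DESeq2, 2 other scalings, and leaving out DMSO replicate 2 or 3 or wtCsy4 replicate 3. With rapamycin it fell by 0.11, a call lost without DMSO replicate 3 or rapamycin replicate A.

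XPO5, which carries pre-microRNAs out of the nucleus, was lower with full-length Csy4 only among the transfected groups. It stood at 211, 196 and 206 CPM with DMSO, 214, 194 and 190 with grazoprevir, 155, 162 and 158 with full-length Csy4, 204, 199 and 210 with untriggered and 198, 197 and 213 with triggered split Csy4. Every full-length library lies below every library of the other groups. XPO5 fell by 0.37 on the log2 scale against DMSO (SE 0.041, edgeR adjusted p = 4.65e-12) and by 0.37 against untriggered split Csy4 (SE 0.042, adjusted p = 1.98e-11). With rapamycin it stood at 187, 176 and 184 CPM, a fall of 0.16 on the log2 scale against DMSO (SE 0.041, edgeR adjusted p = 9.29e-04).

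DGCR8 stood at 80.6, 77.7 and 74.6 CPM with DMSO, 79.9, 75.2 and 77.7 with grazoprevir and 92.2, 102 and 96 with rapamycin. It stood at 86.5, 90.1 and 82.2 CPM with full-length, 82.3, 87.8 and 83.2 with untriggered and 81.8, 84.6 and 87 with triggered split Csy4. Rapamycin is highest, and the transfected libraries all lie above those with DMSO and grazoprevir. Its log2 fold change was 0.32 with rapamycin (SE 0.05, edgeR adjusted p = 2.95e-07) and 0.15 with full-length Csy4 (SE 0.051, adjusted p = 0.0116), and the latter call was lost without DMSO replicate 3 and without wtCsy4 replicate 2. Genes on the other strand and the hosted hairpins cover 9.58% of the exon length of DGCR8, and whether the counting used strand is not given in the sources used here. TARBP2, the partner of DICER1, was called in no comparison. Of 18 other small RNA genes, 5 were called higher and 10 lower with full-length Csy4 against DMSO, with a median log2 fold change of -0.16, against 6 and 1 with untriggered and 6 and 4 with triggered split Csy4. Over all genes, 22.9% and 24% were called higher and lower with full-length, 14.8% and 14.1% with untriggered, 16.2% and 16% with triggered split Csy4. SND1, a nuclease of the silencing complex, fell by 0.65 (SE 0.056, edgeR adjusted p = 5.44e-17) and GEMIN4 fell by 0.56 (SE 0.054, adjusted p = 1.04e-14), while SRRT, which joins the cap-binding complex to the Microprocessor, rose by 0.63 (SE 0.037, adjusted p = 5.03e-25), all on the log2 scale with full-length Csy4.

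Most Argonaute and TNRC6 genes were called higher with full-length Csy4, while AGO1 was called lower. Of the 7 genes, 5 were called higher and 1 lower with full-length Csy4 against DMSO, and 5 higher and 0 lower in each split Csy4 comparison with untransfected cells. Calls higher were 71.4% in each, against 22.9% of all genes with full-length, 14.8% with untriggered and 16.2% with triggered split Csy4. Calls lower were 14.3% with full-length Csy4, against 24% of all genes, and 0% with split Csy4, against 14.1% and 16%. AGO1 stood at 143, 141 and 149 CPM with DMSO, 146, 137 and 125 with grazoprevir and 152, 154 and 158 with rapamycin. It stood at 105, 105 and 102 CPM with full-length, 151, 144 and 136 with untriggered and 129, 146 and 138 with triggered split Csy4. The full-length libraries lie below all 15 others, which overlap one another in part. AGO1 fell by 0.47 on the log2 scale with full-length Csy4 against DMSO (SE 0.047, edgeR adjusted p = 4.56e-14) and by 0.47 against untriggered split Csy4 (SE 0.047, adjusted p = 2.63e-13). With untriggered split Csy4 its change against DMSO was 0.00, and with triggered split Csy4 against grazoprevir 0.02.

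AGO3, which lies next to AGO1, went the other way. It stood at 60, 60.4 and 66.8 CPM with DMSO, 61, 61 and 62.2 with grazoprevir and 66.3, 71.3 and 66.4 with rapamycin. It stood at 91.5, 88.4 and 81.3 CPM with full-length, 83.1, 83.1 and 78.4 with untriggered and 83.1, 81.2 and 84.3 with triggered split Csy4. Every transfected library lies above every untransfected one. The log2 fold change was 0.48 with full-length Csy4 (SE 0.053, edgeR adjusted p = 2.52e-12), 0.39 with untriggered split Csy4 (SE 0.054, adjusted p = 1.56e-08) and 0.43 with triggered split Csy4 (SE 0.055, adjusted p = 6.95e-10), the first 2 against the same DMSO libraries and the last against grazoprevir. Full-length and untriggered split Csy4 were not called apart for AGO3, with a difference of 0.09 and an SE of 0.053 on the log2 scale.

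AGO2, the Argonaute that can itself cut a matched target, stood at 284, 279 and 283 CPM with DMSO, 277, 246 and 263 with grazoprevir and 292, 318 and 312 with rapamycin. It stood at 313, 304 and 283 CPM with full-length, 320, 320 and 318 with untriggered and 334, 333 and 345 with triggered split Csy4. Both split Csy4 groups lie above both untransfected controls, while full-length Csy4 overlaps DMSO and rapamycin. AGO2 rose by 0.36 on the log2 scale with triggered split Csy4 against grazoprevir (SE 0.038, edgeR adjusted p = 9.12e-13) and by 0.18 with untriggered split Csy4 against DMSO (SE 0.037, adjusted p = 1.04e-04). With full-length Csy4 its change was 0.09 (SE 0.037, edgeR adjusted p = 0.0463), a call lost in 8 of 15 alternatives, among them DESeq2 and leaving out any DMSO replicate or wtCsy4 replicate 1 or 2. The interaction for AGO2 was 0.18 on the log2 scale (SE 0.053, edgeR adjusted p = 0.112), and it was called with DESeq2 and without Grazoprevir replicate 1. AGO4 was called with rapamycin alone, at 0.20 on the log2 scale, a call lost without DMSO replicate 3 or rapamycin replicate A.

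The TNRC6 genes encode the scaffold proteins that tie Argonaute to the deadenylases. TNRC6C stood at 26.1, 26.8 and 27.5 CPM with DMSO, 22.8, 21.5 and 26.7 with grazoprevir and 27.8, 32.2 and 28.3 with rapamycin. It stood at 37.6, 39.5 and 37.7 CPM with full-length, 30.6, 32.8 and 30.8 with untriggered and 32.7, 32.8 and 33 with triggered split Csy4. Full-length Csy4 is highest, both split groups lie between, and DMSO and grazoprevir are lowest, without overlap between these 3 levels, while 1 rapamycin library lies among the split Csy4 libraries. The log2 fold change of TNRC6C was 0.52 with full-length Csy4 (SE 0.076, edgeR adjusted p = 2.44e-08), 0.23 with untriggered (SE 0.078, adjusted p = 0.0196) and 0.47 with triggered split Csy4 (SE 0.081, adjusted p = 1.90e-06), and full-length exceeded untriggered split Csy4 by 0.29 (SE 0.076, adjusted p = 0.00219). The call with untriggered split Csy4 was lost without DMSO replicate 1 and without SplitCsy4_DMSO replicate 2. An antisense gene, TNRC6C-AS1, covers 12.9% of the exon length of TNRC6C.

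TNRC6A stood at 139, 144 and 138 CPM with DMSO, 134, 124 and 137 with grazoprevir, 147, 142 and 142 with rapamycin, 179, 175 and 177 with full-length, 150, 157 and 153 with untriggered and 170, 171 and 165 with triggered split Csy4. The 3 transfected groups lie above the untransfected groups and do not overlap one another. Its log2 fold change was 0.34 with full-length (SE 0.041, edgeR adjusted p = 4.48e-11), 0.36 with triggered (SE 0.042, adjusted p = 6.28e-11) and 0.13 with untriggered split Csy4 (SE 0.041, adjusted p = 0.0125), the last lost without DMSO replicate 1 or 3 or SplitCsy4_DMSO replicate 2. Of all members TNRC6A came nearest to a called interaction, at 0.23 on the log2 scale (SE 0.059, edgeR adjusted p = 0.0528), which was called with DESeq2, with library totals alone, with a filter of at least 1 CPM in 3 libraries, and without Grazoprevir replicate 1 or 3. TNRC6B rose by 0.16, 0.22 and 0.36 on the log2 scale with full-length, untriggered and triggered split Csy4.

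Among decapping genes, the calls with Csy4 against untransfected cells were all rises, and DCP2, the decapping enzyme itself, was not called there. Of 8 genes, 4 were called higher and 0 lower with full-length Csy4 against DMSO, 3 and 0 with untriggered and 4 and 0 with triggered split Csy4. Calls higher were 50%, 37.5% and 50%, against 22.9%, 14.8% and 16.2% of all genes, and calls lower 0%, against 24%, 14.1% and 16%. PATL1, a scaffold that joins the deadenylated mRNA to the decapping machinery, stood at 81.6, 84 and 79.5 CPM with DMSO, 87.3, 85.2 and 84.4 with grazoprevir and 86.6, 90.9 and 91.8 with rapamycin. It stood at 126, 126 and 124 CPM with full-length, 133, 127 and 126 with untriggered and 125, 132 and 128 with triggered split Csy4. The 9 transfected libraries lie between 124 and 133 CPM, and the 9 untransfected ones between 79.5 and 91.8. PATL1 rose 1.53-fold with full-length Csy4 (log2 0.62, SE 0.046, edgeR adjusted p = 4.83e-20), 1.57-fold with untriggered split Csy4 (log2 0.65, SE 0.046, adjusted p = 2.65e-20) and 1.5-fold with triggered split Csy4 (log2 0.58, SE 0.046, adjusted p = 8.13e-18). Full-length and untriggered split Csy4 differed by -0.04 with an SE of 0.046 on the log2 scale, and triggered and untriggered split Csy4 by 0.00 with an SE of 0.045, neither of them called.

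DCP1A, the partner of DCP2 in decapping, stood at 90.4, 87 and 85.2 CPM with DMSO, 89.4, 84.8 and 78.5 with grazoprevir, 87.2, 88.5 and 87 with rapamycin, 112, 112 and 102 with untriggered and 118, 114 and 114 with triggered split Csy4. Full-length Csy4 lay between, at 100, 98.7 and 89.8 CPM, and overlaps DMSO alone; its call there, at 0.14 on the log2 scale, was lost without DMSO replicate 2 or 3 or wtCsy4 replicate 1 or 2. DCP1A rose by 0.31 on the log2 scale with untriggered (SE 0.05, edgeR adjusted p = 8.57e-07) and by 0.45 with triggered split Csy4 (SE 0.05, adjusted p = 8.37e-12). Full-length Csy4 was lower than untriggered split Csy4 by -0.17 (SE 0.05, edgeR adjusted p = 0.00569), a call lost with library totals alone and without wtCsy4 replicate 3. EDC3, an enhancer of decapping, rose by 0.36, 0.24 and 0.23 on the log2 scale with full-length, untriggered and triggered split Csy4. EDC4, another enhancer, was called with full-length Csy4, at 0.18, and with triggered split Csy4, at 0.20, calls lost without DMSO replicate 2 or wtCsy4 replicate 1, and without Grazoprevir replicate 2 or SplitCsy4_Grazoprevir replicate 3. An oppositely oriented gene, CLK3, covers 13.7% of the exon length of EDC3, and a gene on the same strand, AC040162.3, covers 21.2% of that of EDC4. DCP2, DDX6, LSM1 and LSM14A were called with none of these constructs against its untransfected control, with log2 fold changes of -0.02 to 0.11. With rapamycin 4 decapping genes (50%) were called higher and 1 (12.5%) lower, against 17.2% and 16% of all genes. DCP2 was the 1 that fell, by 0.10 on the log2 scale (SE 0.038, edgeR adjusted p = 0.0318), a call lost with the correction for length and GC content and without DMSO replicate 1 or 3 or any rapamycin library. DDX6, a helicase that represses translation, rose by 0.16 with rapamycin (SE 0.033, edgeR adjusted p = 5.33e-05). The rises of EDC4 by 0.20, PATL1 by 0.14 and EDC3 by 0.13 with rapamycin were each lost without rapamycin replicate C. That of PATL1 was also lost without DMSO replicate 3 or rapamycin replicate B, and that of EDC3 without DMSO replicate 2 or 3 or rapamycin replicate A. The correction for length and GC content removed the calls of EDC4 and EDC3. In all, the EDC3 call was lost in 9 of 14 alternatives, DESeq2 among them. Of 14 other decapping genes 4 were called higher and 4 lower with full-length Csy4, against 22.9% and 24% of all genes. DCP1B rose by 0.71 (SE 0.079, edgeR adjusted p = 2.62e-12) and LSM7, of the ring that binds shortened tails, fell by 0.55 (SE 0.062, adjusted p = 3.58e-12) on the log2 scale.

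Both 5′ exonucleases fell with full-length Csy4. XRN1, which degrades decapped RNA in the cytoplasm, stood at 104, 103 and 108 CPM with DMSO, 91.2, 99.9 and 95.7 with grazoprevir and 110, 113 and 110 with rapamycin. It stood at 74.2, 85.8 and 73.6 CPM with full-length, 106, 92.2 and 95.4 with untriggered and 107, 109 and 99.5 with triggered split Csy4. The full-length libraries are the lowest of all 18. XRN1 fell by 0.43 on the log2 scale against DMSO (SE 0.052, edgeR adjusted p = 6.50e-11) and by 0.33 against untriggered split Csy4 (SE 0.053, adjusted p = 5.97e-07). With untriggered split Csy4 its change against DMSO was -0.10 and was not called, and with triggered split Csy4 against grazoprevir it was 0.14 (SE 0.052, edgeR adjusted p = 0.036), where the groups overlap. This rise was lost in 8 of 15 alternatives, among them DESeq2, the correction for length and GC content, and leaving out Grazoprevir replicate 1 or 3 or SplitCsy4_Grazoprevir replicate 1 or 2. XRN2 stood at 219, 224 and 216 CPM with DMSO, 213, 211 and 208 with grazoprevir and 210, 211 and 205 with rapamycin. It stood at 184, 203 and 189 CPM with full-length, 215, 212 and 214 with untriggered and 218, 211 and 206 with triggered split Csy4. The full-length libraries are again the lowest of all 18, and against DMSO XRN2 fell by 0.20 on the log2 scale (SE 0.038, edgeR adjusted p = 9.73e-06). The fall of XRN2 against untriggered split Csy4 by 0.16 was lost with library totals alone.

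**Figure D2:**
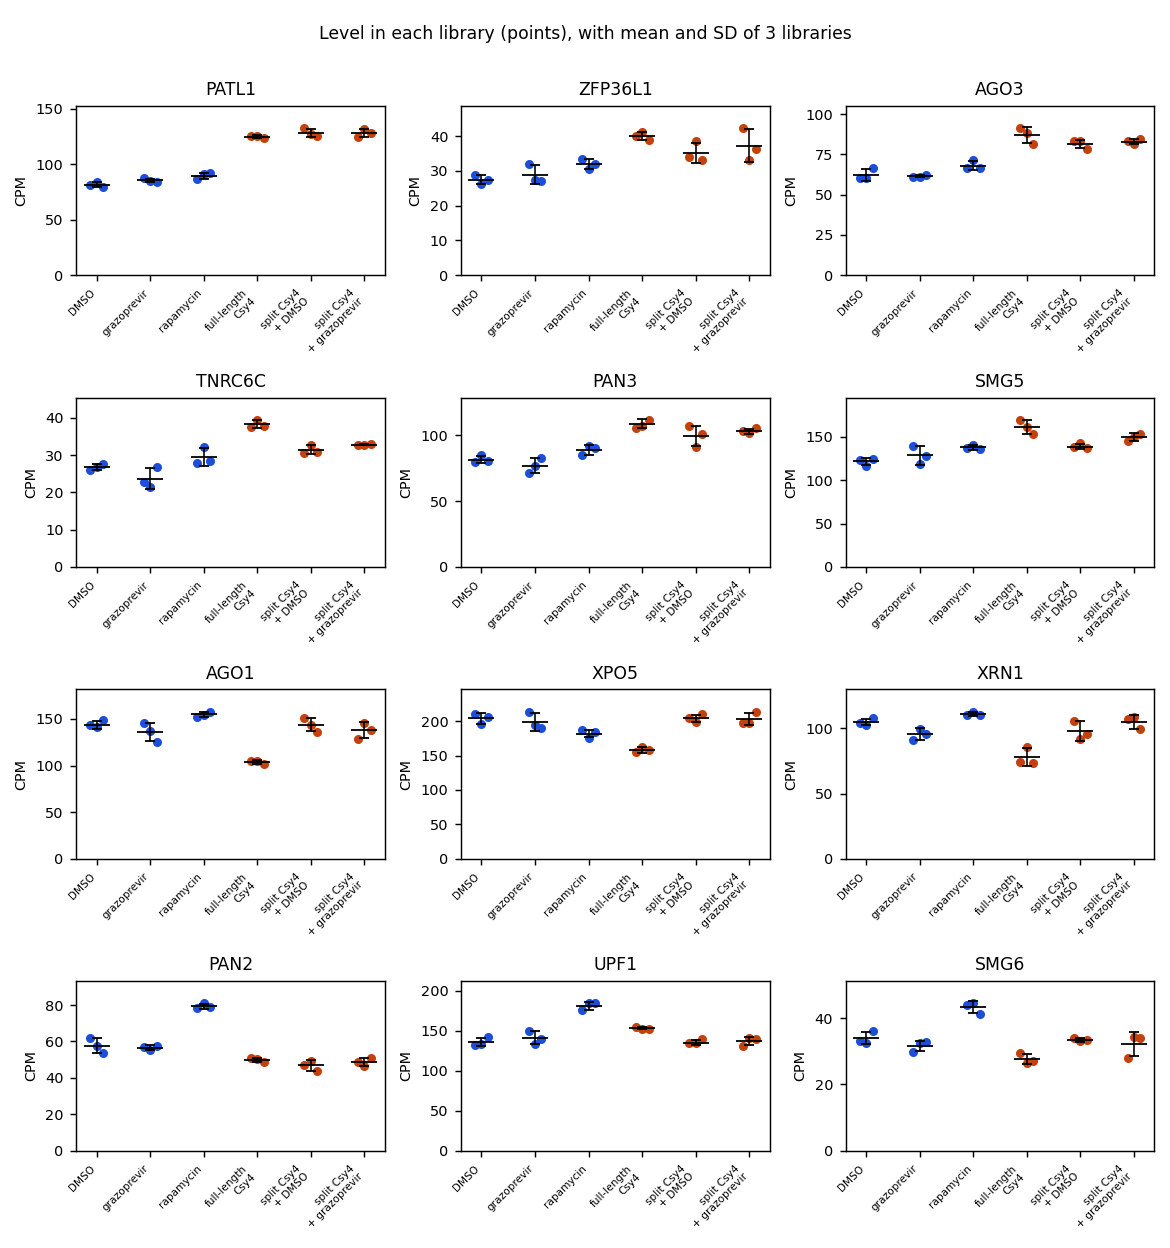
CPM (vertical axis, from 0, scaled by TMM factors) of 12 members in the 18 libraries: points are libraries, bars the mean and SD of 3, blue untransfected and orange transfected groups. PATL1 lies between 124 and 133 CPM in all transfected libraries and at 91.8 or less in the others, AGO1 and XPO5 are lowest with full-length Csy4 alone, and PAN2, UPF1 and SMG6 are highest with rapamycin.

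Among deadenylation genes the partners PAN2 and PAN3 moved in opposite directions with each form of Csy4 against its untransfected control. PAN2, the nuclease of the pair, stood at 61.8, 57.7 and 53.7 CPM with DMSO, 56.7, 55 and 57.7 with grazoprevir and 78.1, 80.9 and 78.8 with rapamycin. It stood at 50.8, 50.3 and 48.7 CPM with full-length, 47.2, 49.4 and 43.9 with untriggered and 48.8, 46.3 and 50.6 with triggered split Csy4. The rapamycin libraries are the highest and all transfected libraries lie below all untransfected ones. PAN2 rose by 0.45 on the log2 scale with rapamycin (SE 0.057, edgeR adjusted p = 4.24e-10), and it fell by 0.21 with full-length (SE 0.059, adjusted p = 0.00193), by 0.31 with untriggered (SE 0.06, adjusted p = 3.30e-05) and by 0.22 with triggered split Csy4 (SE 0.061, adjusted p = 0.00352). PAN3, which holds PAN2 on the RNA and binds TNRC6, stood at 79.6, 85 and 80.2 CPM with DMSO, 71.6, 77.1 and 82.5 with grazoprevir and 85, 91.9 and 90.2 with rapamycin. It stood at 106, 107 and 112 CPM with full-length, 107, 91 and 101 with untriggered and 103, 102 and 106 with triggered split Csy4, all above DMSO and grazoprevir, with 1 untriggered library among those of rapamycin. Its log2 fold change was 0.41 (SE 0.051, edgeR adjusted p = 1.13e-10), 0.29 (SE 0.052, adjusted p = 6.10e-06) and 0.42 (SE 0.053, adjusted p = 3.95e-10) with full-length, untriggered and triggered split Csy4. With rapamycin PAN3 changed by 0.13 on the log2 scale, in the direction of PAN2. It was not called there, though 6 of 14 alternatives called it.

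PARN, a poly(A)-specific ribonuclease, fell by 0.25 on the log2 scale with untriggered and by 0.30 with triggered split Csy4, and its fall by 0.16 with full-length Csy4 was lost with library totals alone and without DMSO replicate 2. The CCR4-NOT subunits changed little: CNOT1, CNOT2 and CNOT8 were called in no comparison of a transfected with an untransfected group. CNOT6, a CCR4-type nuclease, rose by 0.13 with full-length Csy4, and CNOT7, a CAF1-type nuclease, rose by 0.13 and 0.12 with untriggered and triggered split Csy4, the last 2 calls each lost without any of 3 libraries: DMSO replicate 1 or 2 or SplitCsy4_DMSO replicate 1, and Grazoprevir replicate 3 or SplitCsy4_Grazoprevir replicate 1 or 2. With rapamycin CNOT1 fell by 0.23 on the log2 scale (SE 0.039, edgeR adjusted p = 5.90e-06). Of 14 other deadenylation genes, 9 were called higher and 3 lower with full-length Csy4, 4 and 1 with untriggered and 6 and 1 with triggered split Csy4. Their median log2 fold changes were 0.27, 0.04 and 0.08 in that order. Shares called of all genes were 22.9% higher and 24% lower, 14.8% and 14.1%, and 16.2% and 16%. BTG2 and TOB1 belong to a family of growth-inhibiting proteins that recruit CCR4-NOT. BTG2 rose by 1.57 on the log2 scale with full-length (SE 0.058, edgeR adjusted p = 2.00e-37), 0.24 with untriggered (SE 0.063, adjusted p = 0.00194) and 0.60 with triggered split Csy4 (SE 0.063, adjusted p = 1.68e-12), and by 1.05 with rapamycin (SE 0.06, adjusted p = 9.10e-26). TOB1 rose by 0.58, 0.49 and 0.26 with the 3 constructs in that order. PABPC1, the main cytoplasmic poly(A)-binding protein, fell by 0.25 with full-length Csy4 (SE 0.029, edgeR adjusted p = 4.16e-12) and was not called with split Csy4.

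Among exosome genes, EXOSC1, EXOSC2, EXOSC3 and EXOSC10 showed little change with Csy4. They were called in no comparison of transfected with untransfected cells, with log2 fold changes of -0.17 to 0.07. EXOSC2 fell by 0.15 with rapamycin (SE 0.039, edgeR adjusted p = 0.00154). Genes on the other strand cover 39.3% of the exon length of EXOSC10 and 11.2% of that of DIS3. DIS3, the main catalytic subunit, stood at 316, 313 and 306 CPM with DMSO, 307, 314 and 311 with grazoprevir and 294, 292 and 307 with rapamycin. It stood at 371, 383 and 374 CPM with full-length, 358, 353 and 360 with untriggered and 360, 360 and 350 with triggered split Csy4. All transfected libraries lie above all untransfected ones. DIS3 rose by 0.27 on the log2 scale with full-length (SE 0.033, edgeR adjusted p = 7.91e-11), 0.20 with untriggered (SE 0.033, adjusted p = 2.45e-06) and 0.20 with triggered split Csy4 (SE 0.034, adjusted p = 1.35e-06). Its cytoplasmic relative DIS3L had log2 fold changes of -0.19, -0.07 and -0.16, of which the first and last were called; the first was lost with library totals alone, and the last without Grazoprevir replicate 3 or SplitCsy4_Grazoprevir replicate 2. DIS3L2, which degrades uridylated RNAs without the exosome, was called with rapamycin alone, at 0.26. That call was lost with the correction for length and GC content and without DMSO replicate 1 or 2 or rapamycin replicate B. Of 14 other exosome genes, 3 were called higher and 4 lower with full-length Csy4, 4 and 3 with untriggered split Csy4, 2 and 4 with triggered split Csy4, and 1 and 4 with rapamycin. For all genes these shares were 22.9% and 24%, 14.8% and 14.1%, 16.2% and 16%, and 17.2% and 16%. Among these other exosome genes, the ring subunit EXOSC8 fell by 0.28, 0.26 and 0.23 on the log2 scale with full-length, untriggered and triggered split Csy4. SKIC8, of the cytoplasmic Ski complex, fell by 0.43, 0.59 and 0.58.

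Of the 4 exosome cofactors, ZCCHC8 and MTREX were called apart between full-length and untriggered split Csy4, and ZFC3H1 and SKIC2 were not. ZCCHC8, a subunit of the nuclear exosome targeting complex, stood at 51.9, 55.2 and 54.1 CPM with DMSO, 55.5, 56.2 and 50.3 with grazoprevir, 59.6, 54.4 and 57.9 with rapamycin, 66.4, 65.2 and 69 with full-length, 53.3, 50.7 and 57.5 with untriggered and 57.1, 55.6 and 57 with triggered split Csy4. Only the full-length libraries stand above the rest. ZCCHC8 rose by 0.32 on the log2 scale against DMSO (SE 0.058, edgeR adjusted p = 3.31e-06) and by 0.31 against untriggered split Csy4 (SE 0.059, adjusted p = 1.62e-05). ZFC3H1, which serves the same exosome on polyadenylated nuclear RNA, stood at 146, 146 and 150 CPM with DMSO, 132, 134 and 133 with grazoprevir and 115, 117 and 122 with rapamycin. It stood at 128, 125 and 129 CPM with full-length, 130, 130 and 121 with untriggered and 130, 128 and 125 with triggered split Csy4. DMSO is highest and rapamycin among the lowest, and grazoprevir lies below DMSO without overlap. ZFC3H1 fell by 0.21 with full-length Csy4 (SE 0.042, edgeR adjusted p = 2.53e-05), by 0.21 with untriggered split Csy4 (SE 0.042, adjusted p = 5.57e-05) and by 0.32 with rapamycin (SE 0.042, adjusted p = 2.84e-09) on the log2 scale. Full-length and untriggered split Csy4 differed by 0.00 for ZFC3H1, with an SE of 0.043, and its change with grazoprevir was -0.15 (SE 0.042, edgeR adjusted p = 0.131). MTREX, the helicase common to both complexes, was lower with full-length than with untriggered split Csy4 by -0.20 (SE 0.039, edgeR adjusted p = 2.82e-05) and fell by 0.30 with rapamycin. Against DMSO it rose by 0.11 with untriggered split Csy4, a call lost without DMSO replicate 3 or SplitCsy4_DMSO replicate 1 or 2, and changed by -0.09 with full-length Csy4, not called. SKIC2, the helicase of the cytoplasmic Ski complex, fell by 0.25 with untriggered split Csy4.

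Nonsense-mediated decay factors went both ways. Of 7 genes, 3 rose and 2 fell with full-length Csy4, 2 rose and 1 fell with each form of split Csy4, and 4 rose and 2 fell with rapamycin. The higher and lower calls were 42.9% and 28.6% with full-length Csy4, against 22.9% and 24% of all genes. With each split form they were 28.6% and 14.3%, against 14.8% and 14.1% untriggered and 16.2% and 16% triggered. For rapamycin they were 57.1% and 28.6%, against 17.2% and 16%. The call of UPF3A with full-length Csy4, at 0.19, was lost with DESeq2 and without DMSO replicate 2 or 3 or wtCsy4 replicate 1 or 3. With rapamycin the call of UPF3A was lost without DMSO replicate 2 or 3 or rapamycin replicate A or B, that of UPF2 without DMSO replicate 1 or 2 or rapamycin replicate A or B, and that of SMG1 without rapamycin replicate A. UPF1, the central helicase, stood at 132, 133 and 142 CPM with DMSO, 150, 133 and 140 with grazoprevir and 176, 184 and 184 with rapamycin. It stood at 154, 152 and 152 CPM with full-length, 134, 134 and 139 with untriggered and 131, 141 and 139 with triggered split Csy4. Rapamycin is highest and full-length Csy4 next, without overlap with the other 4 groups, which overlap one another. UPF1 rose by 0.42 on the log2 scale with rapamycin (SE 0.042, edgeR adjusted p = 2.78e-13) and by 0.17 with full-length Csy4 (SE 0.043, adjusted p = 5.22e-04), and it was not called with untriggered or triggered split Csy4, at 0.00 and -0.04. SMG5, which brings phosphorylated UPF1 to decay enzymes, stood at 123, 117 and 125 CPM with DMSO, 140, 119 and 128 with grazoprevir, 137, 141 and 136 with rapamycin, 170, 161 and 154 with full-length, 138, 143 and 137 with untriggered and 145, 150 and 154 with triggered split Csy4. Each transfected group lies above its own control. SMG5 rose by 0.41 on the log2 scale with full-length (SE 0.045, edgeR adjusted p = 1.97e-12), 0.19 with untriggered (SE 0.046, adjusted p = 5.68e-04) and 0.22 with triggered split Csy4 (SE 0.046, adjusted p = 6.95e-05), and full-length exceeded untriggered by 0.22 (SE 0.045, adjusted p = 8.80e-05).

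SMG6, the endonuclease of the pathway, stood at 33.2, 32.6 and 36.2 CPM with DMSO, 29.9, 32.5 and 32.7 with grazoprevir, 44.1, 44.5 and 41.2 with rapamycin, 29.4, 26.4 and 27.2 with full-length, 34.1, 33 and 33.5 with untriggered and 28, 34.4 and 34 with triggered split Csy4. Rapamycin is highest, and full-length Csy4 lies below every group other than triggered split Csy4, of which 1 library falls within its range. SMG6 fell by 0.30 on the log2 scale with full-length Csy4 (SE 0.076, edgeR adjusted p = 7.41e-04) and rose by 0.35 with rapamycin (SE 0.072, adjusted p = 6.68e-05). Other genes share 25.4% of its exon length. UPF3B, which links UPF proteins to the exon junction complex, stood at 167, 163 and 150 CPM with DMSO, 156, 159 and 160 with grazoprevir, 162, 164 and 148 with rapamycin, 133, 142 and 140 with full-length, 124, 129 and 135 with untriggered and 129, 122 and 125 with triggered split Csy4. All transfected libraries lie below all untransfected ones. UPF3B fell by 0.21 with full-length (SE 0.044, edgeR adjusted p = 4.74e-05), 0.31 with untriggered (SE 0.044, adjusted p = 4.13e-08) and 0.34 with triggered split Csy4 (SE 0.045, adjusted p = 2.91e-09). SMG1, the kinase that phosphorylates UPF1, rose by 0.21 and 0.33 with untriggered and triggered split Csy4 and was -0.06 and not called with full-length Csy4. Pseudogenes of SMG1 in 7 rows held 12954 counts against 139433 for SMG1 itself (9.29%), so reads of the near-identical copies could have been split between them.

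Of 13 other genes of nonsense-mediated decay, 9 were called higher and 1 lower with full-length Csy4 against DMSO, 10 and 2 with untriggered and 6 and 2 with triggered split Csy4, and 3 and 2 with rapamycin. The shares of all genes were 22.9% and 24%, 14.8% and 14.1%, 16.2% and 16%, and 17.2% and 16% in that order. NBAS fell by 0.68 on the log2 scale with full-length Csy4 (SE 0.064, edgeR adjusted p = 4.93e-15). Of 28 transcripts known to be sensitive to the pathway, 6 of which (UPF1, UPF2, UPF3B, SMG1, SMG5 and SMG6) are members, 16 were called higher and 4 lower with full-length Csy4, 14 and 3 with untriggered and 12 and 3 with triggered split Csy4, and 9 and 10 with rapamycin. Their median log2 fold change was 0.16, 0.13, 0.11 and -0.03 in that order, against -0.01, 0.00, 0.00 and 0.02 for all genes. The shares of all genes just given apply to these counts as well. SNHG1, a host gene of small nucleolar RNAs, rose by 0.78 with full-length (SE 0.035, edgeR adjusted p = 3.65e-32), 0.69 with untriggered (SE 0.035, adjusted p = 1.41e-27) and 0.59 with triggered split Csy4 (SE 0.035, adjusted p = 9.97e-24), and fell by 0.26 with rapamycin (SE 0.036, adjusted p = 7.83e-09). GADD45A, a growth arrest gene, rose by 2.10 with full-length Csy4 (SE 0.067, edgeR adjusted p = 2.02e-38), 0.71 with untriggered and 0.85 with triggered split Csy4. ATF4, a stress transcription factor, changed by -0.16 with full-length Csy4 (edgeR adjusted p = 2.30e-05) and -0.94 with rapamycin (adjusted p = 2.57e-39). Many of these transcripts are also known stress or growth genes, and their part in the counts was not tested.

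PELO and HBS1L, which together release stalled ribosomes, moved differently. PELO stood at 29.7, 25.8 and 32.4 CPM with DMSO, 29.5, 29.5 and 32.4 with grazoprevir and 27, 28.1 and 25.2 with rapamycin. It stood at 32.9, 35.5 and 36.5 CPM with full-length, 33, 34.4 and 31.6 with untriggered and 37.7, 41.4 and 36.8 with triggered split Csy4. The full-length and triggered groups lie above their controls, and the untriggered group overlaps DMSO. PELO rose by 0.34 with triggered split Csy4 (SE 0.078, edgeR adjusted p = 3.10e-04) and by 0.26 with full-length Csy4 (SE 0.077, adjusted p = 0.00377), the latter lost without DMSO replicate 2, and PELO lies within the gene ITGA1 on the same strand. HBS1L fell by 0.31 with rapamycin (SE 0.04, edgeR adjusted p = 9.83e-10) and by 0.13 with untriggered split Csy4 (SE 0.04, adjusted p = 0.00888), the latter lost without DMSO replicate 2 or SplitCsy4_DMSO replicate 2. It was higher with full-length than with untriggered split Csy4 by 0.17 (SE 0.04, edgeR adjusted p = 4.15e-04), a call lost in the test against a 1.2-fold change. Of the AU-rich element binders, ZFP36L1, which brings CCR4-NOT to cytokine and growth mRNAs, stood at 28.8, 26.3 and 27.5 CPM with DMSO, 32, 27.5 and 27.1 with grazoprevir, 33.4, 30.6 and 31.9 with rapamycin, 40, 41.1 and 38.8 with full-length, 33.9, 38.5 and 33 with untriggered and 42.4, 33.1 and 36.3 with triggered split Csy4. All transfected libraries lie above all libraries of both controls, and 1 rapamycin library lies among those of split Csy4. ZFP36L1 rose by 0.54 on the log2 scale with full-length (SE 0.078, edgeR adjusted p = 1.65e-08), 0.35 with untriggered (SE 0.079, adjusted p = 3.68e-04) and 0.37 with triggered split Csy4 (SE 0.08, adjusted p = 1.17e-04). ZFP36L2 was called with triggered split Csy4, at 0.17, and with rapamycin, at 0.17; the first call was lost without Grazoprevir replicate 2 or SplitCsy4_Grazoprevir replicate 2 and the second without rapamycin replicate B.

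The 2 split Csy4 comparisons with untransfected cells share no library, so their calls can be set side by side. Of 21 members called with untriggered split Csy4 against DMSO and 22 called with triggered split Csy4 against grazoprevir, 17 were called in both in the same direction, which is 81% of the first and 77.3% of the second, and 0 in opposite directions. Over all genes the shared calls were 70.8% of the first and 63.5% of the second. The 17 were 14 that rose (AGO2, AGO3, TNRC6A, TNRC6B, TNRC6C, DCP1A, EDC3, PATL1, CNOT7, PAN3, DIS3, SMG1, SMG5 and ZFP36L1) and 3 that fell (PAN2, PARN and UPF3B). Full-length Csy4 against DMSO and triggered split Csy4 against grazoprevir also share no library, and 18 members were called in both in the same direction, 60% of the 30 and 81.8% of the 22, against 50.1% and 73.1% over all genes. XRN1 was the 1 member called in opposite directions there.

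**Figure D3:**
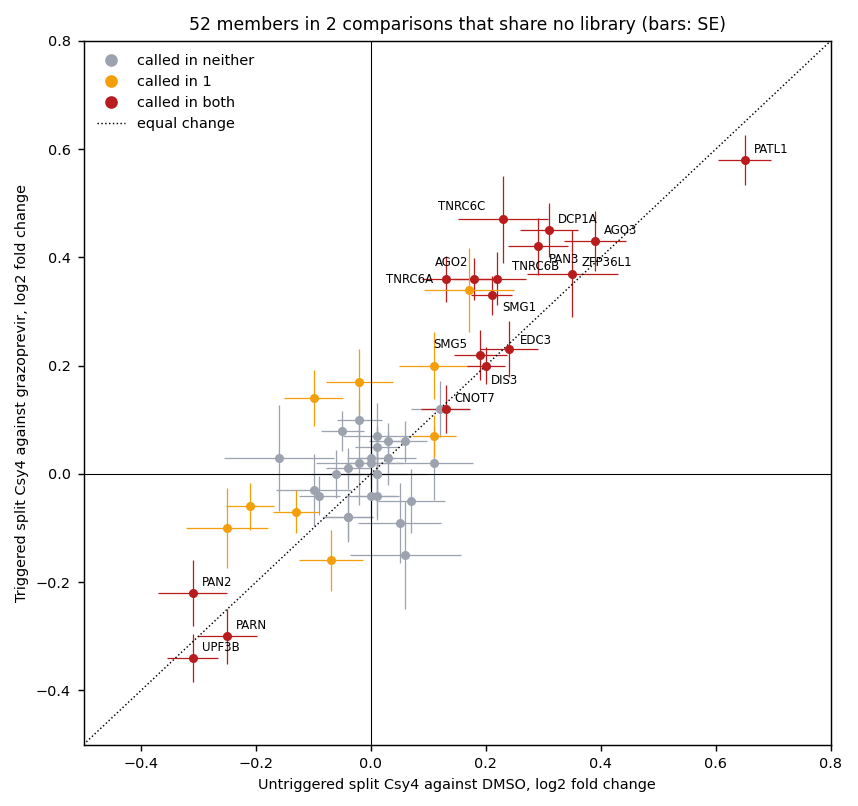
Log2 fold change of 52 members with untriggered split Csy4 against DMSO (horizontal) and with triggered split Csy4 against grazoprevir (vertical), with SE bars; red points, which are named, were called in both, amber in 1 and grey in neither, and the dotted line marks equal change. The 17 red points lie to the upper right and lower left of the origin, with PATL1 at 0.65 and 0.58 the farthest out.

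Full-length and untriggered split Csy4 groups were both transfected and both received DMSO. They carry different constructs, so construct and enzyme cannot be told apart between them either. Their direct comparison called 15 members, a share that, as given above, is near that of all genes in both directions. AGO1, XPO5 and XRN1 were lower with full-length Csy4, by -0.47, -0.37 and -0.33 on the log2 scale, and ZCCHC8 and TNRC6C were higher, by 0.31 and 0.29. SMG1 was lower by -0.27 (SE 0.036, edgeR adjusted p = 1.42e-08) and SMG6 by -0.28 (SE 0.078, adjusted p = 0.0034), while CNOT6 was higher by 0.22 (SE 0.036, adjusted p = 1.28e-06). Of the 15 calls, 13 were kept in every alternative other than the test against a 1.2-fold change, and XPO5 and AGO1 were kept in that as well. Triggered and untriggered split Csy4 were not called apart for any member. The smallest p was that of TNRC6A, with a difference of 0.14 on the log2 scale (SE 0.041, edgeR unadjusted p = 0.00132, adjusted p = 0.22).

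**Figure D4:**
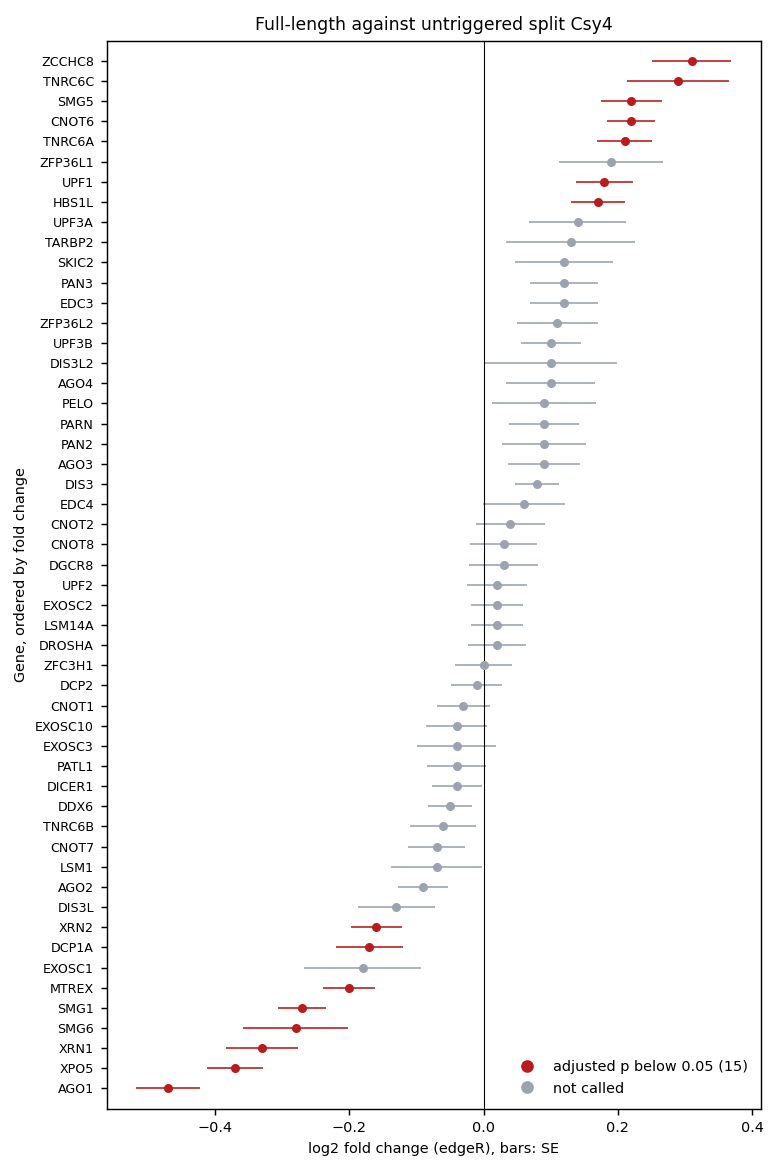
Log2 fold change (horizontal, with SE) of the 52 members, ordered on the vertical axis, between full-length and untriggered split Csy4; red points have an adjusted p below 0.05 (edgeR). The 15 red points run from AGO1 at -0.47 to ZCCHC8 at 0.31.

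Grazoprevir alone moved no member past the threshold, and its log2 fold changes ran from -0.18 to 0.12. Long genes tended to be lower with grazoprevir against DMSO: the rank correlation of log2 fold change with exonic length was -0.20 over 15324 genes, against 0.12 for triggered split Csy4 against grazoprevir and 0.19 for the interaction, a description over genes that share libraries. The members are long, with a median exonic length of 6926.5 bases against 4687.5 for these genes, and the part of length in the members' values against grazoprevir was not tested beyond the correction for length and GC content, under which 16 members were called higher and 6 lower with triggered split Csy4 against grazoprevir, in place of 18 and 4: XRN1 and CNOT7 lost their calls, and ZFC3H1 and HBS1L were called lower. With rapamycin, a treatment without Csy4, the largest called rises were those of PAN2, UPF1, SMG6 and DGCR8 and the largest called falls those of ZFC3H1, HBS1L, MTREX and CNOT1. Of its 26 calls, 12 were kept in every alternative other than the test against a 1.2-fold change. For full-length Csy4 against DMSO that number was 21 of 30, for untriggered split Csy4 16 of 21 and for triggered split Csy4 against grazoprevir 17 of 22.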

How the data were processed

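Poly(A) RNA of 18 HEK-293T libraries was measured as raw read counts per gene, in 1 table that the authors deposited and that was used as given. Named in the submitters' processing notes are HTSeq 0.6.1, HISAT2 2.2.1, cutadapt 1.9.1, the build hg38 and DESeq2 1.44.0; the annotation and the strand setting of the counting are not given in the sources used here. Reads of overlapping or antisense genes can therefore be mixed. Rapamycin libraries are lettered A, B and C, because their columns carry an identical header.

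The analysis used edgeR 4.0.16 under R 4.3.3, with filterByExpr, TMM factors, and 1 robust quasi-likelihood fit of all 18 libraries with 6 group means. Every p for a gene is from this fit, two-sided, and adjusted p-values are Benjamini-Hochberg over the 17966 genes tested. The SE of a log2 fold change was taken as its size over the square root of the F value. Levels are CPM scaled by TMM factors. The interaction subtracts the log2 response to grazoprevir of untransfected cells from that of cells with split Csy4. The fit was checked on simulated counts with known changes. Exon lengths and overlaps come from GENCODE 29, and gene spans, promoters and microRNAs from RefSeq on GRCh38.p14.

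Members given in every library are the called members of largest absolute change (up to 8 with full-length Csy4 against DMSO, 5 in other comparisons with untransfected cells and between full-length and split Csy4, 3 elsewhere) and, whatever their values, DROSHA, DICER1, AGO2, XRN1, DIS3, UPF1 and ZFP36. TNRC6A, XRN2 and PELO were added after their values were seen. The members, the lists and this rule were chosen with earlier results of these data known. Alternatives were other scalings, filters, DESeq2 1.42.0, a test against a 1.2-fold change, only the groups compared, a replicate block, and each library left out. A correction for length and GC content was added after seeing the data.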

Additional observations from a re-analysis of the deposited data

How the results depend on the processing

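Of 33 values of named members, tried under 490 alternatives in all, 460 kept direction and side of the threshold, 30 lost the call, 0 gained one and 0 reversed. Tested against a 1.2-fold change with edgeR, called members fell to 11 with full-length Csy4 against DMSO, 1 with untriggered split Csy4 against DMSO, 6 with triggered split Csy4 against grazoprevir, 2 for full-length against untriggered split Csy4 and 2 with rapamycin, which that test's own threshold brings about. Library totals alone gave 25 for full-length against untriggered split Csy4 and 1 for the interaction, a filter of at least 1 CPM in 3 libraries gave 1 for the interaction, and DESeq2 gave 1 for grazoprevir against DMSO and 2 for the interaction. The cause of these was not tested. Leaving out 1 library, grazoprevir against DMSO gave 0 to 2 called members and the interaction 0 to 2, with 2 in each case without Grazoprevir replicate 1. Other counts ran from 23 to 29 with full-length Csy4 against DMSO, 17 to 21 for untriggered split Csy4 and 18 to 24 once triggered, 15 to 16 for full-length against untriggered split Csy4 and 19 to 23 with rapamycin. Libraries with the same replicate number were by median no more alike than others. Deviations of same-numbered libraries correlated with a median r of 0.00 (-0.23 to 0.23, 30 pairs), against 0.01 for other pairs (-0.22 to 0.30, 60 pairs). Of 15 libraries, 7 correlated best with their own number. What the more strongly correlated pairs share was not tested. With the replicate block 30, 21, 23 and 15 members were called in the first 4 comparisons, against 30, 21, 22 and 15 without it, and 0 for triggered against untriggered split Csy4, grazoprevir against DMSO and the interaction. Rapamycin columns carry no number, so no block was fitted there. With 3 libraries per group the depth and the spread between them (a biological coefficient of variation of 4.15%) limit which small changes could be called.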

Other observations

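Among 12 other genes whose proteins bind AU-rich elements or stem-loops and call in decay enzymes, calls were more often higher than lower with each construct and with rapamycin. Of the 12, 8 were called higher and 1 lower with full-length Csy4 against DMSO, 6 and 1 with untriggered split Csy4, 8 and 1 with triggered split Csy4 against grazoprevir, and 6 and 0 with rapamycin. Their median log2 fold changes were 0.17, 0.13, 0.17 and 0.11 in that order, against -0.01, 0.00, 0.00 and 0.02 for all genes. Higher and lower calls over all genes were 22.9% and 24%, 14.8% and 14.1%, 16.2% and 16%, and 17.2% and 16%. RC3H1 and RC3H2, the roquin proteins that bind stem-loops, rose by 0.39 (SE 0.05, edgeR adjusted p = 2.74e-10) and 0.39 (SE 0.036, adjusted p = 2.01e-15) on the log2 scale with full-length Csy4. TIA1, a stress granule protein, was the 1 that fell, by 0.25 (SE 0.078, edgeR adjusted p = 0.0168).

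Host transcripts of microRNAs were mostly too low to test, with 6 of 14 passing the filter. The shares of all genes given above apply here too. Of the 6, 2 were called higher and 1 lower with full-length Csy4 against DMSO, 0 and 2 with untriggered split Csy4, 0 and 2 with triggered split Csy4 against grazoprevir, and 1 and 1 with rapamycin. The lowest log2 fold changes were those of MIR210HG, a hypoxia-induced transcript, at -1.36 with untriggered split Csy4 (SE 0.29, edgeR adjusted p = 1.30e-04), -0.73 with full-length Csy4 (SE 0.27, adjusted p = 0.02) and -0.74 with rapamycin (SE 0.27, adjusted p = 0.0257), and with triggered split Csy4 it was -0.48 and not called. MIR503HG had the lowest with triggered split Csy4, at -0.90 (SE 0.21, edgeR adjusted p = 3.88e-04), and was called in no other of these comparisons. MIR22HG was called higher with full-length Csy4, at 0.45 (SE 0.19, edgeR adjusted p = 0.0438). MIR34AHG, a p53 target, rose by 0.54 on the log2 scale with full-length Csy4 (SE 0.12, edgeR adjusted p = 1.65e-04) and by 1.07 with rapamycin (SE 0.12, adjusted p = 6.27e-12), and it changed by -0.02 and 0.26 with untriggered and triggered split Csy4, neither called. MIR17HG, the host of the oncogenic cluster, fell by 0.34 with untriggered (SE 0.096, edgeR adjusted p = 0.0102) and by 0.34 with triggered split Csy4 (SE 0.095, adjusted p = 0.00916), and changed by -0.23 with full-length Csy4 (SE 0.095, adjusted p = 0.0563). The full-length Csy4, untriggered split Csy4 and rapamycin comparisons share their DMSO libraries.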
